A study of Mus musculus with 8 samples.

Results

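The comparison set the array of mouse skin fat taken 10 d after wax plucking against the array taken at 6 d, 2 of the 8 arrays of the series. The members were chosen by their titles. Both samples are total RNA of female mice of the inbred strain C57BL/6, aged 11 weeks by their labels, while the age at plucking in the treatment protocol is lower. Both coats had been waxed in the resting phase, and the series' design adds that an earlier waxing had brought the follicles into step. The tissue is labelled adipose cell, but by the design text it took in fat and dermis around the follicles. How many mice gave each sample is not given in the sources used here. The other arrays are 1 shaved control and plucked skin at 12 h, 1 d, 2 d, 4 d and 50 d. The shaved control entered no difference given here and is shown only among the levels of all arrays. With 1 array a time, every value below is a difference between 2 arrays and carries no test, and the spread between mice is unknown.

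Plucking a resting hair starts a new growth phase, anagen. A germ of progenitor cells at the base of the follicle multiplies under hedgehog and WNT signals, grows down into the dermal fat and forms a matrix around the dermal papilla, a cluster of signalling fibroblasts. Matrix cells then leave the cell cycle and build the shaft and the inner root sheath that guides it, while pigment cells of the bulb hand melanin to the shaft. The shaft is made of hard keratins bound into a matrix of keratin-associated proteins, whose genes start with Krtap and lie in clusters.

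Levels are given as the log2 of the processed spot signal minus the 75th percentile of the array, and differences as the level at 10 d minus that at 6 d. Of 28955 genes well above background on the brighter array, 842 (2.91%) were at least 2-fold higher at 10 d and 1152 (3.98%) at least 2-fold lower. The median difference over all genes was 0.10, and Pearson's r between the arrays across genes, which are not independent replicates, was 0.981. Higher genes made up 42.2% of these calls, against 31.4% after quantile normalization and 19.2% when the arrays were aligned on their spike-in controls, which took the median of all genes to -0.17. The share was 49.3% (708 higher and 729 lower) with both arrays required to be well above background, 53.5% (1452 and 1260) with no such filter and 55.8% at 1.5-fold, so which direction held more calls depended on the setting. Of the 15840 measured genes with a proper symbol, not a clone, predicted gene or accession name, 307 were at least 2-fold higher and 789 lower. Most members of the gene lists below have such symbols. The header of the 10 d file gives a spike-in slope of 0.891 and marks it as out of range. Fewer spots were well above background at 10 d (74.1%) than at 6 d (81.2%). Over the probes present in 10 copies, the median SD among copies was 0.068 at 6 d and 0.057 at 10 d. Where a gene had several probes, the SD of the difference among them had a median of 0.20. These errors are technical. Where a gene was not well above background at 1 of the times, its fold is a lower bound, written as at least N-fold. Counts of genes past 2-fold use the measured difference for such genes too. Counts of list members lowest or highest of the 8 arrays have no share over all genes beside them, because it was not computed. Such ranks also depend on the scaling of the arrays.

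**Figure D1:**
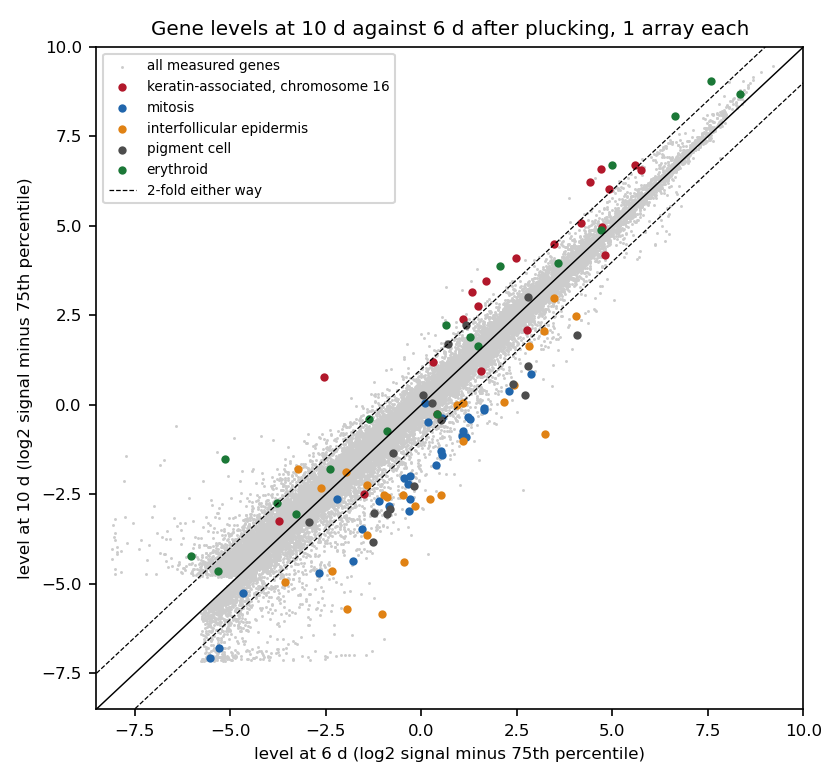
Level of each measured gene at 6 d (x axis) and at 10 d (y axis), both as log2 signal minus the array's 75th percentile, 1 array each, with 5 gene lists in colour. Of the chromosome 16 keratin-associated genes 16 of 21 lie above the line of equality, as do 18 of 19 erythroid genes, whereas all 29 mitosis genes, 23 of 26 epidermal genes and 13 of 17 pigment cell genes lie below it.

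The samples held markers of fat and of several other tissues at both times. All 20 mature adipocyte genes were measured, with Adipoq, which encodes adiponectin, at 5.71 at 6 d and 5.88 at 10 d. Beside them stood skeletal muscle genes, with a median level of 6.64 at 6 d and 6.60 at 10 d over 21 genes, inner root sheath genes, with 5.43 and 4.06 over 8, and interfollicular epidermis genes, with -0.30 and -2.27 over 26. In such bulk RNA, fewer cells of a type and less RNA per cell cannot be told apart.

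Keratin-associated protein genes were grouped by chromosome after values were seen. The chromosome 16 group stood apart through the stretch of genes described in the next paragraph, and its genes outside that stretch did not. Of 51 measured, 14 were at least 2-fold higher at 10 d and 8 at least 2-fold lower, and their median difference was -0.20 while their mean was 0.07. Of the 21 genes of the chromosome 16 cluster, 11 were at least 2-fold higher and none 2-fold lower, with a median of 1.02. Of the 20 genes of the chromosome 11 cluster, 2 were at least 2-fold higher and 6 lower, with a median of -0.42, and of 10 genes elsewhere 1 was higher and 2 lower, with a median of -0.53. With spike-in alignment the chromosome 16 counts were 8 higher and 1 lower, and the median was 0.75. Near-identical members of these families can share hybridisation, so a single member's value is uncertain and members that agree are not independent of each other. The specificity of the probes was not checked.

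Within chromosome 16 the higher genes were neighbours. A stretch of 14 measured Krtap genes from Krtap14 to Krtap6-2, picked out after its values were seen, runs from position 88825536 to 89419627 in the mm9 build. All 14 were higher at 10 d, by 0.80 to 3.33 with a median of 1.30, and all 14 stood higher at 10 d than on any other of the 8 arrays. The 7 Krtap genes on both sides of the stretch differed by -0.98 to 0.48, with a median of -0.63. Most genes of the stretch belong to the Krtap19, Krtap6, Krtap20, Krtap21 and Krtap22 families, known as small glycine- and tyrosine-rich proteins of the shaft. The make-up of the proteins was not examined for genes inside or outside the stretch. Whether this class sets the stretch apart was therefore not tested. Another 22 probe names with no Krtap name on the array lie between its ends, and 10 of them were at least 2-fold higher and none 2-fold lower.

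Krtap19-1, named Krtap16-9 on the array, had the largest difference of the family. The probe covers bases 88869163 to 88869222 of chromosome 16 (mm9), and its place within the gene is not given because an mm9 annotation was not used here. Its level was -2.54 at 6 d and 0.78 at 10 d, a difference of 3.33, against -7.79 to -4.69 on the other 6 arrays. Krtap19-2 (array name Krtap16-1) stood at 4.70 and 6.60 and differed by 1.90. Krtap19-3 (Krtap16-5) stood at 1.33 and 3.15 and differed by 1.81. Both were far lower on the other arrays, where the highest levels were 1.33 for Krtap19-2 and -2.04 for Krtap19-3. Of the 7 genes outside the stretch 5 were lower at 10 d: Krtap24-1 differed by -0.98, Krtap13-1 stood at 2.77 and 2.09, Krtap7-1 at 0.40 and -0.25, and Krtap11-1 and Krtap26-1 differed by -0.63 and -0.62. The other 2, Krtap13 and Krtap8-1, were higher by 0.48 and 0.24 and stood highest of the 8 arrays at 10 d. For Krtap13 that rank means little, because its level ranged only from -3.74 to -3.23 over the 8 arrays. At 10 d it exceeded the next array by 0.016.

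On chromosome 11 14 of the 20 keratin-associated genes were highest of the 8 arrays at 6 d and the other 6 at 10 d. Krtap4-9 stood at 1.71 at 6 d and -0.50 at 10 d, a difference of -2.21, Krtap1-3 at 0.80 and -1.06, and Krtap17-1 was lower by -1.46 after 3.86 at 6 d. Krtap31-2 and Krtap31-1, the pair at least 2-fold higher at 10 d, stood at -1.13 and 0.23 and at -0.96 and 0.29. Elsewhere, Krtap28-10 and Krtap28-13 of chromosome 1 were lower by -1.98 and -1.15, and Krtap5-4 of chromosome 7 was higher by 1.29. Next to Krtap5-4 in that group came Krtap5-1 at -0.24 and Krtap12-1 at -0.30.

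**Figure D2:**
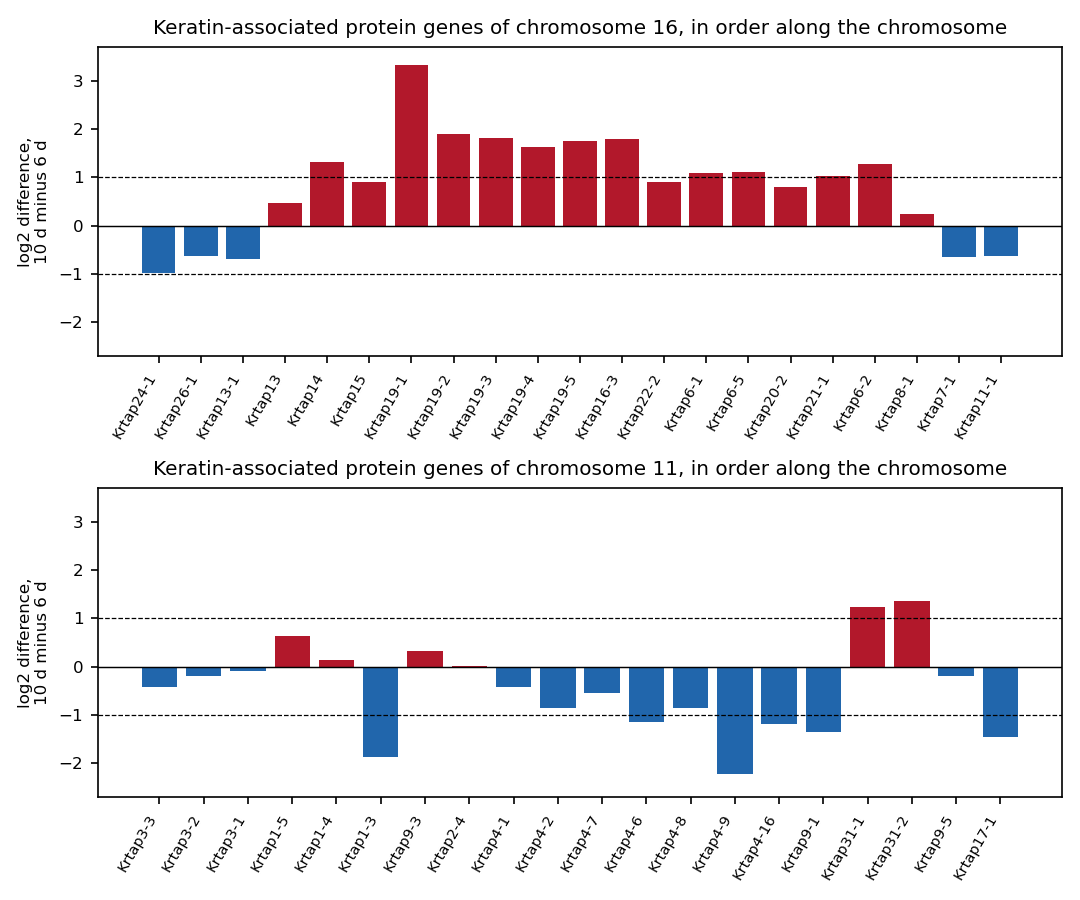
Log2 difference, 10 d minus 6 d, of each measured keratin-associated protein gene of chromosome 16 (top) and chromosome 11 (bottom), 1 array a time, with genes in their order along the chromosome under current symbols and dashed lines at 2-fold. The stretch from Krtap14 to Krtap6-2 is higher at 10 d throughout, with a median of 1.30, whereas 6 of the 20 chromosome 11 genes are at least 2-fold lower.

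The starts of these genes were read from RefSeq promoters of the GRCm38.p6 build for the letters TATAAA, a core promoter element, on the gene's strand 40 to 11 bases before the start. It stood there in 2.3% of 27025 promoters, in 15 of 18 chromosome 11 genes found in the table, and in 8 of 20 chromosome 16 genes. Of those 8, 4 lie among the 14 genes of that stretch and 4 among the 6 matched genes outside it. They also stood in 5 of 7 inner root sheath genes, 4 of 9 shaft keratins and none of 25 mitosis genes. The windows below, 30 bases long and with TATAAA in capitals, show the 4 genes of the stretch that hold the letters, 2 genes beside it, a gene of chromosome 11 and an inner root sheath keratin.
Krtap16-3, chr16:88962884-88962913, minus strand: caacacagggTATAAAagcattctggatag
Krtap22-2, chr16:89010770-89010799, minus strand: ggcagTATAAAaggacccacacctggttag
Krtap6-5, chr16:89047910-89047939, minus strand: tgagacagTATAAAaggtctccactcaggc
Krtap20-2, chr16:89205821-89205850, plus strand: accctggcaTATAAAaggcccttggtagat
Krtap24-1, chr16:88612290-88612319, minus strand: tcaccagggaagaTATAAAgagtccttcag
Krtap11-1, chr16:89571194-89571223, minus strand: tgagcaaggataTATAAAaagcccagggtc
Krtap17-1, chr11:99994005-99994034, minus strand: tgagggggaTATAAAagctgctgtccagct
Krt25, chr11:99322962-99322991, minus strand: gagaatcgtcTATAAAagggcaaacaaaac
In the order printed, the differences of these genes were 1.79, 0.90, 1.12, 0.80, -0.98, -0.63, -1.46 and -1.37, so genes with these letters stood on both sides of 0.

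Letters of the LEF and TCF factors that act on WNT signals, CTTTGAA on either strand within 250 bases before the start, occurred in 4.64% of all promoters. They occurred in 6 of 20 chromosome 16 genes, 5 of 9 shaft keratins, 1 of 18 chromosome 11 genes and 1 of 7 inner root sheath genes. A match describes letters only. The windows show 5 chromosome 16 genes and 3 shaft keratins that hold it, with the 7 letters in capitals, in reverse complement for Krtap19-3.
Krtap14, chr16:88826335-88826364, minus strand: gatgaataacagCTTTGAAgattgaacact
Krtap15, chr16:88828861-88828890, plus strand: tcataaaaagtcCTTTGAAggttaaagtat
Krtap19-3, chr16:88878204-88878233, minus strand: aactcacaggtaTTCAAAGaggcagagaag
Krtap24-1, chr16:88612442-88612471, minus strand: tgattacgggtaCTTTGAAgactcaaaaca
Krtap11-1, chr16:89571404-89571433, minus strand: gaccaatagCTTTGAAgctgtcaactgcat
Krt32, chr11:100088490-100088519, minus strand: gccCTTTGAAgatgtgtcttgatgctctcc
Krt33b, chr11:100030089-100030118, minus strand: ttaCTTTGAAgccaaaccatgaagctcttt
Krt34, chr11:100041670-100041699, minus strand: tgaggggggactCTTTGAAagcaatctaag
In the order printed, the differences were 1.33, 0.91, 1.81, -0.98, -0.63, -1.11, 0.14 and 0.26, again on both sides of 0.

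Hair shaft keratins, the hard keratins of cortex and cuticle, had no common direction. Of 15 measured, 1 was at least 2-fold higher and 4 lower, and the median was 0.04 while the mean was -0.23, and with spike-in alignment the median was -0.23 too. Krt34, Krt33b, Krt31, Krt81, Krt83 (now Krt87) and Krt86, among the keratins of the cortex and its surroundings, differed by at most 0.27 in either direction. Krt33a and Krt85 were lower, by -0.45 and -0.88. Krt86, for instance, stood at 4.68 at 6 d and 4.95 at 10 d against at most 1.12 on the other arrays. Lower by at least 2-fold were Krt40 (-0.83 at 6 d and -2.79 at 10 d), Krt82 (1.82 and 0.03), Krt35 (5.72 and 4.31) and Krt32 (-1.36 and -2.47). Krt35, among the first hard keratins made above the matrix, was as high at 4 d, at 5.82. Krt84, a hard keratin known from the papillae of the tongue, was 10.0-fold higher at 10 d, with -4.18 at 6 d, -0.86 at 10 d and at most -3.39 elsewhere.

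Inner root sheath genes were lower at 10 d. Of 8 measured, none was 2-fold higher and 5 were at least 2-fold lower, with a median of -1.37. Krt27 stood at 6.42 at 6 d and 4.85 at 10 d, Krt73 at 4.54 and 3.00, Krt26 at 1.42 and -0.07, Krt25 at 6.17 and 4.80, and Krt28 at 4.69 and 3.32. These levels remained high beside those of the shaved control, 12 h, 1 d, 2 d and 50 d arrays, of which the highest was 2.26 for Krt27 and 0.69 for Krt73. Tchh, which encodes trichohyalin, stood at 7.24 and 6.25. Krt74 was the exception at 0.10, and its level ranged from -4.28 to -3.65 over the 8 arrays.

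Genes of cross-linking and adhesion in shaft and sheath followed the sheath keratins. Of 13 measured, 7 were at least 2-fold lower and none 2-fold higher, with a median of -1.10. Tgm5, a transglutaminase, stood at -1.19 at 6 d and -3.12 at 10 d, the lowest of the 8 arrays. Crym, a shaft cuticle and cortex marker, stood at 3.88 and 2.23, the calcium-binding cuticle gene S100a3 at 5.64 and 4.07, and Padi3, an enzyme that modifies trichohyalin, at 3.28 and 1.88.

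Transcription factors of matrix and shaft were lower too. Of 17 measured, 7 were at least 2-fold lower and none 2-fold higher, with a median of -0.87. Hoxc13, a homeobox activator of hair keratin genes, stood at 1.79 at 6 d and -0.13 at 10 d, after 2.03 at 4 d and at most -2.22 on the remaining arrays. Dlx2 stood at -0.61 and -2.59, and Ovol1 at -0.23 and -1.82. Lef1, the nuclear partner of beta-catenin, stood at 2.08 and 0.50. Foxn1, the nude gene, missed 2-fold at -0.87. All these levels at 10 d lay between those at 6 d and those of the shaved control.

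Progenitor genes of the outer root sheath, bulge and germ were lower in part. In the list of 14 measured stem cell and germ genes, 7 were at least 2-fold lower and none 2-fold higher, with a median of -1.15, while 4 were above 0. Lhx2, a regulator of follicle progenitors (probe on chromosome 2, 38224933 to 38224992 in mm9), stood at 1.52 at 6 d and -1.54 at 10 d, a difference of -3.06, after 3.12 at 4 d. Lgr5, a receptor that marks germ and lower bulge, was lower by -2.78 after 0.39 at 6 d, and Tbx1 stood at 1.97 and -0.23. Krt15, a basal and bulge keratin, stood at 3.42 and 0.53. Lgr5, Tbx1 and Krt15 were lower at 10 d than on any other array, the shaved control included. Sox9 was lower by -1.80 and Cdh3, which encodes P-cadherin, by -1.84. Cd34, a bulge marker that vessels and dermal cells also express, went the other way, with 6.15 and 6.99. Cd200 and Fgf18 of the same list differed by 0.06 and -0.27.

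The keratins of the outer root sheath and companion layer had the lowest median of all lists, -2.09, with 6 of 8 at least 2-fold lower and none higher. Krt5 stood at 5.03 at 6 d and 2.94 at 10 d, and Krt14 at 2.16 and 0.04, both the lowest of the 8 arrays at 10 d. Krt17 stood at 4.36 and 2.27, Krt6a at -1.32 and -3.44, and the companion layer keratin Krt75 at -0.26 and -1.38. Krt16 and Krt6b were not lower and differed by 0.20 and 0.22. The other probe of Krt6b was lower, at -1.63, an SD of 1.31 between its 2 probes. With the mean over probes 1 member of the list was above 0. Krt5, Krt14 and Krt15 are also made in the basal epidermis, so these values are not particular to the follicle.

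**Figure D3:**
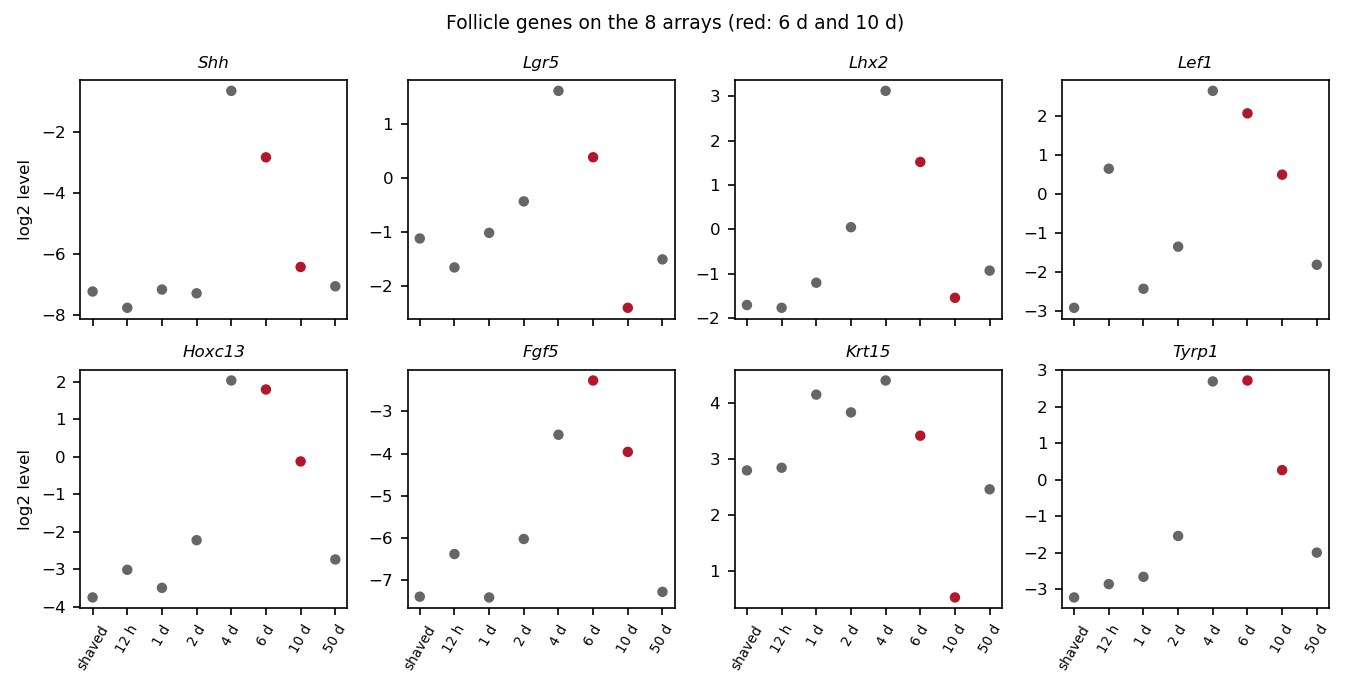
Level of 8 follicle genes on each of the 8 arrays (log2 signal minus the array's 75th percentile), 1 array a time, with 6 d and 10 d in red. Shh, Lgr5, Lhx2 and Lef1 are highest at 4 d, Fgf5 and Tyrp1 at 6 d, and all 8 genes are lower at 10 d than at 6 d.

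Hedgehog genes were lower at the ligand and its targets. Shh, the ligand made by the germ and matrix (probe on chromosome 5, 28783983 to 28784042 in mm9), was well above background on the 4 d and 6 d arrays only, at -0.65 and -2.84, and was at least 3.94-fold lower at 10 d. The direct targets Gli1 (1.53 at 6 d and 0.39 at 10 d), Ptch1 (-1.72 and -2.85) and Hhip (-0.05 and -1.77) were lower by -1.14, -1.13 and -1.72. The probes of Hhip disagreed in size, with an SD of 0.97. The receptor and signal components Smo (-0.34) and Sufu (0.17) differed little, and over all 14 measured genes 4 were at least 2-fold lower, none higher, and the median was -0.20.

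Of 34 measured WNT genes, 9 were at least 2-fold lower and none 2-fold higher, with a median of -0.61, or -0.38 with dim genes at their bound. Among ligands, Wnt10a stood at 1.04 at 6 d and -0.85 at 10 d, and Wnt3 at -2.33 and -3.67. The receptor Fzd10 stood at 1.71 and -0.04, and Rspo2, an amplifier of WNT signals, was at least 2.96-fold lower. Wif1, a secreted inhibitor and a target, stood at 0.99 and -1.14, and the target Axin2 at -1.51 and -2.65, with an SD of 0.83 between its 2 probes. The nuclear effectors Lef1 and Tcf7 were lower by -1.58 and -1.36. Ligands, inhibitors, receptors and effectors thus held lower members alike. The highest difference of the list was 0.64, for the secreted inhibitor Sfrp4.

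BMP and growth factor genes differed less. The median over 21 BMP genes was -0.18, none was 2-fold higher and 3 were past 2-fold lower by their measured difference. On both arrays well above background were the targets Id4 (0.37 at 6 d and -1.14 at 10 d) and Id1 (2.40 and 1.37). The antagonist Grem1 (-5.07 and -6.09) was not well above background at 10 d, and its 6 d level was too low to give a bound. Bmp4 and Bmp2, ligands of dermis and fat, differed by -0.30 and 0.32. Of 29 growth factor genes, 3 were at least 2-fold lower and none higher: the EGF receptor ligand Ereg (-2.63 and -4.57), Fgf5, a signal that ends anagen (-2.27 and -3.96), and the receptor Fgfr3 (1.58 and 0.15). The 3 probes of Fgfr3 disagreed in size, with an SD of 0.61, and with the mean over probes 2 genes of the list were at least 2-fold lower. Fgf5 was higher at 6 d than on any other array, so its level at 10 d was below that maximum. The largest difference upward was 0.87, for Tgfb1, and the median of 0.02 became -0.25 with spike-in alignment.

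In the 14 dermal papilla genes the median was -0.29, and 1 gene was at least 2-fold lower. That gene was Hhip, also counted above. Crabp1 (-0.94), Inhba (-0.92) and Vcan (-0.83) came next, while Corin (0.09), Alx4 (0.17) and Notum (0.06) hardly differed. The median was -0.56 with spike-in alignment, and 4 genes were then at least 2-fold lower.

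Mitosis genes had the largest share of members at least 2-fold lower of any list. Of 29 measured, 24 were at least 2-fold lower at 10 d, all 29 were below 0, and the median was -1.81. Of the 26 well above background on both arrays 22 were at least 2-fold lower, and Aurkb and Cenpf, the other 2 of the 24, were too dim to give a bound. The mitotic kinase gene Cdk1 stood at -0.32 at 6 d and -2.96 at 10 d, with an SD of 1.42 between its 3 probes. Bub1, of the spindle checkpoint, stood at -1.77 and -4.38, and Top2a, which disentangles chromosomes, at -0.28 and -2.62. Prc1, of the central spindle, stood at 1.16 and -0.91. Mki67, the proliferation marker, stood at 2.88 and 0.86, and its 2 probes differed by an SD of 0.030. The median level of the list was 0.11 at 6 d after a peak of 0.70 on the 4 d array. Its 10 d value of -1.68 lay within the -2.45 to -0.93 spanned by the shaved, 12 h, 1 d and 2 d arrays. Among 27 DNA replication genes 9 were at least 2-fold lower and 26 below 0, and the median was -0.87. Uhrf1 stood at 1.78 and -0.46 and the thymidine kinase gene Tk1 at 1.11 and -0.89, with probe SDs of 1.36 and 1.27. The ribonucleotide reductase gene Rrm2 stood at 1.57 and -0.26.

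The letters CCAAT, bound by the factor NF-Y and known from promoters of cell cycle genes, stood on either strand within 250 bases before the start of 34.5% of all promoters, 21 of 25 mitosis genes and 14 of 23 replication genes. They also stood in 12 of 18 keratin-associated genes of chromosome 11, 5 of 9 shaft keratins, 3 of 7 inner root sheath genes and 4 of 20 keratin-associated genes of chromosome 16, so they were not limited to cell cycle genes. Below are windows of the 3 mitosis genes with the largest difference and of Ccnb1, a cyclin and partner of Cdk1, with CCAAT or its reverse complement in capitals.
Cdk1, chr10:69352943-69352972, minus strand: acgtgcaatcggATTGGcggatcccgggag
Bub1, chr2:127831884-127831913, minus strand: ccgcagcggagaCCAATagtcaggcgcgct
Top2a, chr11:99024230-99024259, minus strand: agcgagtcggtgATTGGttcctctgatttg
Ccnb1, chr13:100786536-100786565, minus strand: gccacgaactggCCAATgaggagcgagcgg

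Of 17 pigment cell genes measured, 9 were at least 2-fold lower and 1 higher, with a median of -1.72. The melanin enzyme genes Tyrp1 (2.72 at 6 d and 0.26 at 10 d) and Dct (4.08 and 1.95), the melanosome receptor gene Gpr143 (-1.26 and -3.82) and the melanocortin receptor gene Mc1r (-0.91 and -3.06) differed most, by -2.46, -2.12, -2.56 and -2.16. Their levels at 10 d still exceeded those of the shaved control, 12 h, 1 d, 2 d and 50 d arrays. The transcription factor genes Mitf (0.22) and Sox10 (0.23), which other cells also express, and the receptor gene Kit (-0.23) hardly differed. Ednrb, an endothelin receptor that vessels share, was higher by 1.07.

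**Figure D4:**
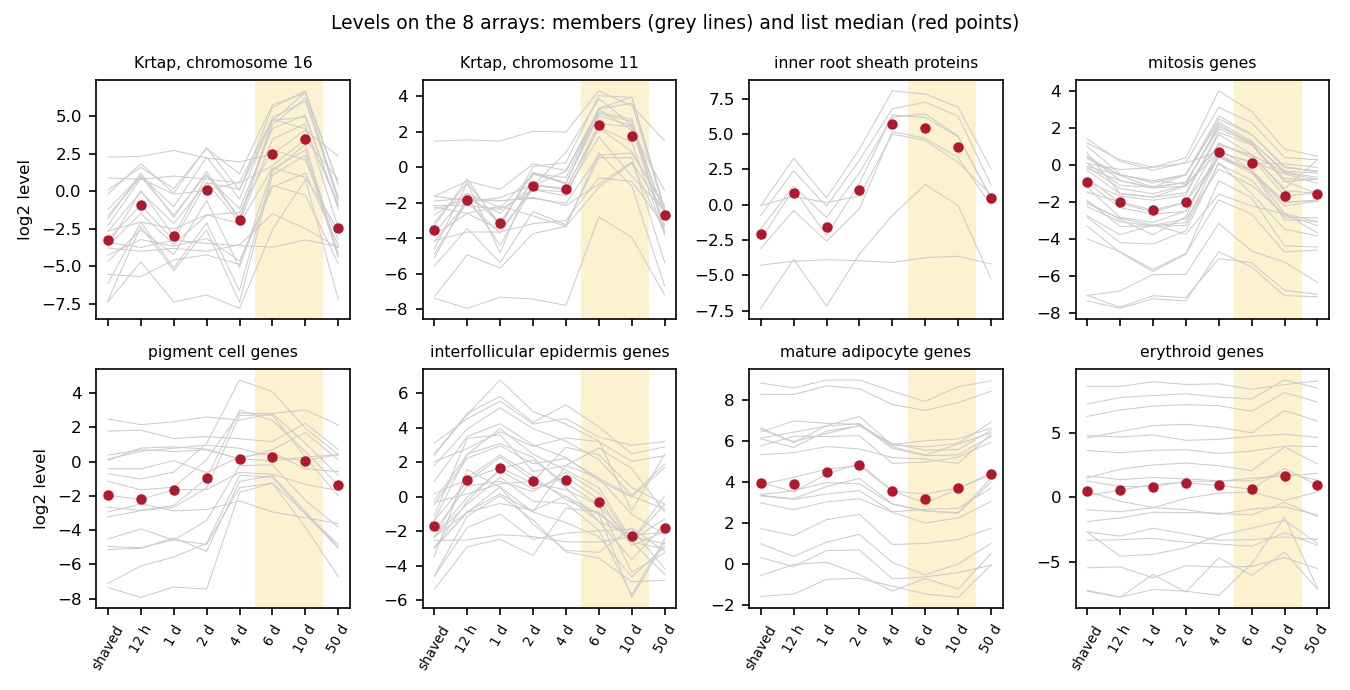
Levels on the 8 arrays (log2 signal minus the array's 75th percentile) of the members of 8 gene lists (grey lines) and the median of each list (red points), 1 array a time, with 6 d and 10 d shaded. The chromosome 16 keratin-associated median is highest at 10 d (3.47), while the inner root sheath median (5.43 at 6 d and 4.06 at 10 d), the mitosis median (0.11 and -1.68) and the epidermal median (-0.30 and -2.27) are lower at 10 d than at 6 d.

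Genes of the interfollicular epidermis were far lower at 10 d. Of 26 measured, 20 were at least 2-fold lower and 1 higher, with a median of -1.80, and 14 were lower at 10 d than on any other array. Lor, which encodes loricrin of the cornified envelope (probe on chromosome 3, 91884206 to 91884265 in mm9), stood at 3.24 at 6 d and -0.81 at 10 d, 16.6-fold lower, and between 2.42 and 6.79 on the other arrays. Flg, which encodes filaggrin, stood at -0.44 and -4.38 and was 15.4-fold lower. Lce1f and Flg2 were at least 13.9-fold and 7.36-fold lower. The suprabasal keratin Krt10 stood at 2.15 and 0.09. Ivl and Krt2 differed by 0.10 and 0.31, and Lce3c, a gene of injured epidermis, was higher by 1.42. The other probe of Krt2 was lower, at -1.72, an SD of 1.43 between its 2 probes. With the mean over probes 2 members of the list were above 0.

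The median level of the epidermal list was lower at 10 d (-2.27) than on any other array, the next being 50 d (-1.81). In a list of 20 general epithelial genes, which follicle and epidermis share and which was added after the other values were seen, 10 were at least 2-fold lower and none higher, with a median of -0.98. Col17a1, of the hemidesmosome, stood at -0.68 and -3.05, and the desmosome genes Dsc3 and Pkp1 were lower by -1.84 and -1.73. The 2 probes of Dsc3 had an SD of 0.70. The share of epidermis in each sample is not in the labels, and its part in the lower follicle and mitosis values was not tested.

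**Figure D5:**
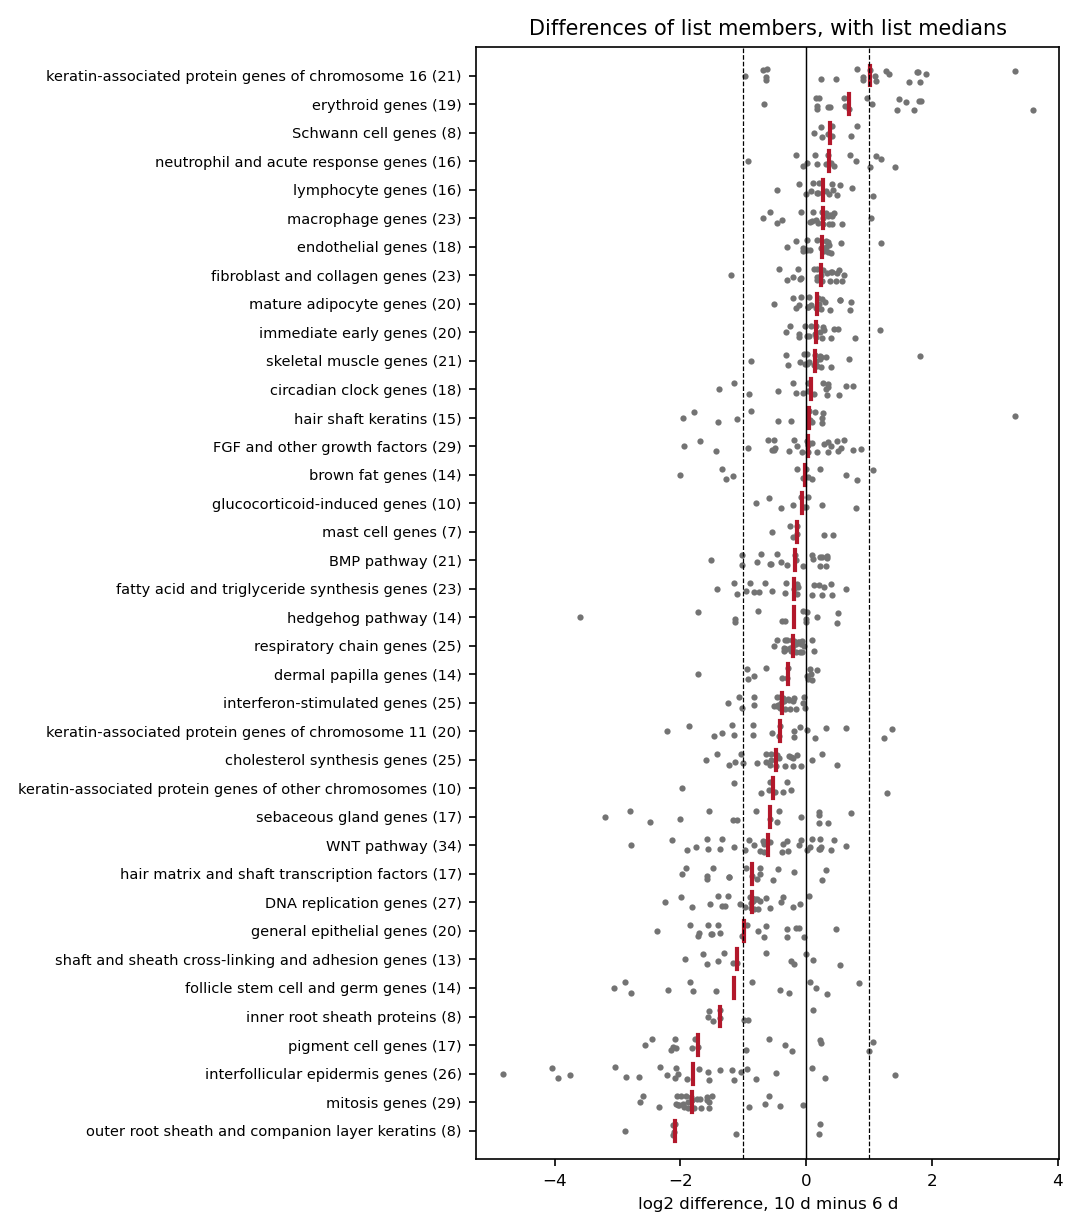
Log2 difference, 10 d minus 6 d, of each measured member (grey points) of every gene list, with the list median (red bars), 1 array a time, dashed lines at 2-fold and the number measured in brackets, genes with a bound at their measured difference. Medians run from -2.09 for outer root sheath and companion layer keratins to 1.02 for the keratin-associated genes of chromosome 16.

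Sebaceous gland genes were low at 10 d as well. Of 17 measured, 7 were at least 2-fold lower and none higher, with a median of -0.57, and 11 were lower than on any other array. Elovl4, which elongates very long fatty acids, stood at 0.86 at 6 d and -1.94 at 10 d, and Krt79, a keratin of the gland duct, at 3.20 and 0.72. Elovl3 stood at -0.76 and -2.76. Far2, a fatty alcohol enzyme gene whose 2 probes disagreed with an SD of 1.86, was at least 2.53-fold lower. The melanocortin receptor gene Mc5r (0.72) and Scd1 (0.20), which fat also expresses, were not lower. Among 25 cholesterol synthesis genes 5 were at least 2-fold lower, the median was -0.48, and 14 stood lower at 10 d than on any other array. Fdps stood at 3.57 and 1.97, Idi1 at 1.71 and 0.29 and Sqle at 1.77 and 0.64, while Srebf2, the regulator of the pathway, was higher by 0.49 with an SD of 0.79 between its 2 probes.

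Mature adipocyte genes differed little. None of 20 was 2-fold apart, and the median of 0.18, close to the 0.10 of all genes, became -0.09 with spike-in alignment. Cfd, which encodes adipsin, stood at 7.92 at 6 d, the lowest of the 8 arrays, and at 8.64 at 10 d, a difference of 0.72. Adig stood at 2.97 and 3.66, Pnpla2, the first lipase of lipolysis, at 5.31 and 5.84, and Lipe, the hormone-sensitive lipase, at -0.53 and 0.00. These 4 genes were the highest of the list, and Lep, which encodes leptin, was the lowest at -0.51.

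Fat synthesis and heat production genes held a few lower members. Of 23 fatty acid and triglyceride synthesis genes, 3 were at least 2-fold lower and none higher, with a median of -0.19: Elovl6 (3.22 at 6 d and 1.80 at 10 d), Acss2 (2.46 and 1.31) and Dgat2 (5.35 and 4.25). Of these, all 3 were lower at 10 d than on any other array. The 2 probes of Acss2 disagreed, with an SD of 0.71, and with the mean over probes 2 genes of the list were at least 2-fold lower. Among 14 brown fat genes, Elovl3, Ppargc1a (-1.33), a regulator of mitochondria, and Cidea (-1.16) were lower, Ucp1 was at least 2.07-fold lower, and Otop1 was higher by 1.06. Elovl3, Cidea and Dgat2 are also counted among the sebaceous genes. Respiratory chain genes differed by -0.51 to 0.13, with a median of -0.21 and none of 25 past 2-fold. Of the 25, 23 were lower at 10 d than on any other array, and the share over all genes was not computed. The median was close in size to the SD of 0.20 among probes of a gene, and such ranks depend on the scaling.

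Erythroid genes were the other group with a high share of higher members. Of 19 measured, 8 were at least 2-fold higher and none lower, with a median of 0.68 (0.41 with spike-in alignment), and 15 were higher at 10 d than on any other array. Epb42, which encodes protein 4.2 of the red cell membrane and is named Epb4.2 on the array (probe on chromosome 2, 120844440 to 120844499 in mm9), was 12.2-fold higher, with -5.13 at 6 d and -1.52 at 10 d, and was well above background on these 2 arrays only. Alas2, of haem synthesis in red cells, stood at 2.06 and 3.89, and the globin gene Hbb-b2 at 4.98 and 6.69. Rhd, of a blood group protein, was at least 2.94-fold higher. Hba-a2 differed by 0.35 and Tfrc, the transferrin receptor of many dividing cells, by -0.66. Globin genes are near-identical and can share hybridisation. The amount of blood in each sample is not in the labels, and its part in these values was not tested.

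Immune genes differed by less. Macrophage genes had a median of 0.26, which became -0.0041 with spike-in alignment, with 1 of 23 at least 2-fold higher, Cd14 (2.24 at 6 d and 3.28 at 10 d). Lymphocyte genes also had a median of 0.26, or -0.0039 with spike-in alignment, and 1 of 16, Cd2 (1.07), was at least 2-fold higher. Of 16 neutrophil and acute response genes, 4 were at least 2-fold higher, with a median of 0.37: Stfa2 (-2.49 and -1.08), S100a9 (-1.14 and 0.05), Lcn2 (0.15 and 1.27) and Stfa2l1 (-4.22 and -3.21). With spike-in alignment 1 was at least 2-fold higher and 1 lower, and the median was 0.10. The 10 d levels lay below those at 12 h, which were -0.31, 5.38, 5.05 and -0.57. All 25 interferon-stimulated genes were below 0, their median was -0.39, and 3 were at least 2-fold lower: Isg15 (3.24 and 2.00), Ifi44 (0.80 and -0.26) and Ifit3 (3.20 and 2.18). The 7 mast cell genes had a median of -0.15 and none was 2-fold apart.

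Stromal genes showed single exceptions. Endothelial and fibroblast genes had medians of 0.26 and 0.23, which became -0.0091 and -0.039 with spike-in alignment. Cldn5, of endothelial tight junctions, stood at 0.83 at 6 d, the lowest of the 8 arrays, and 2.02 at 10 d. Postn, which encodes the matrix protein periostin, stood at 3.68 and 2.48, the lowest of the 8 arrays, and was the single fibroblast gene at least 2-fold lower, while the elastic fibre genes Loxl1 and Eln were higher by 0.60 and 0.57 and highest of all arrays. All 8 Schwann cell genes were above 0, by 0.13 to 0.80, with myelin genes Mbp and Mag at 0.80 and 0.72, and 5 of the 8 with spike-in alignment. Skeletal muscle genes had a median of 0.14, or -0.13 with spike-in alignment, and Myh7, the myosin of slow fibres, stood at 0.06 and 1.88 within a range of -0.89 to 4.18 over the arrays.

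Genes that follow the hour of the day or handling gave a mixed picture. Of 18 clock genes, Cry1 (-2.79 at 6 d and -4.17 at 10 d) and Dbp (2.80 and 1.66) were at least 2-fold lower and none was 2-fold higher, with Nr1d1 at 0.75. The labels give no hour of sampling. Of 20 immediate early genes, Fosb was higher by 1.17 and the other 19 were not 2-fold apart, and none of 10 glucocorticoid-induced genes was 2-fold apart.

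Across all genes with a proper symbol, 307 of 15840 were at least 2-fold higher and 789 lower. The genes measured on both arrays with the largest differences upward were Epb42 (3.61), Krtap19-1 (3.33) and Krt84 (3.32), then Sprr1b, a cornified envelope gene of injured epidermis (-3.87 at 6 d and -0.99 at 10 d). Six3, a homeobox gene (-4.97 and -2.61), Serpina3k (-5.35 and -3.01), Zdhhc22 (1.46 and 3.79), Mgat5 (-5.58 and -3.29), Fbxo32, which encodes a ubiquitin ligase of muscle wasting (1.31 and 3.47), and Gbx1 (-5.29 and -3.17) followed. The probes of Zdhhc22 and Gbx1 disagreed, with SDs of 1.27 and 1.29. Defa21, Crisp3, L3mbtl4 and Stoml3 had the largest bounds, at least 20.5-fold, 17.0-fold, 12.6-fold and 5.82-fold. Each rests on 1 probe, and Defa21, L3mbtl4 and Stoml3 were well above background on the 10 d array alone.

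The largest difference downward was in Nmrk2, named Itgb1bp3 on the array, a muscle gene of NAD synthesis (probe on chromosome 10, 80662033 to 80662092 in mm9), with 2.66 at 6 d and -2.37 at 10 d. Its level at 4 d was -2.31 and on the remaining arrays 0.13 to 3.74, so 6 d to 10 d was not a steady course. Lor, Flg, the cornified envelope genes Lce1d (-3.37), Lce1b (-3.06) and Lce1a1 (-3.05), Calm4 (-3.25), Lhx2 and Krt15 came next, with the skin defensin gene Defb6 at 0.03 and -2.88. The largest bounds downward belonged to Lce1f, Ppp1r14d (at least 10.9-fold), Prss38 (at least 10.3-fold) and the skin protease gene Klk6 (at least 9.42-fold). Prss38 was well above background on the 6 d array alone.

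The neighbouring steps give the scale of these counts. Between 4 d and 6 d, 5.16% of measured genes were at least 2-fold higher at the later time and 2.79% lower, 7.95% in all. Between 6 d and 10 d the sum was 6.89%. Between 10 d and 50 d, 5.58% were higher and 7.03% lower, 12.6% in all. Each neighbouring step shares 1 array with the comparison of 10 d and 6 d, so these counts are not independent of it. Calls lay mostly among dim genes: with genes split by signal into 3 equal sets, 561 were higher and 602 lower in the dimmest set, against 94 and 201 in the brightest.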

How the data were processed

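Spot intensity was extracted by the authors with Agilent Feature Extraction 10.5.1.1, which subtracted background, detrended and put surrogates on dim spots without scaling arrays to each other, per the file headers. Probe positions are on mm9. Control and outlier spots were left out, spots were averaged by probe, and 55668 of 55681 probes with 34790 gene names were used. Each value is the log2 of the deposited processed intensity less that array's 75th percentile. Each gene took its probe with the highest mean signal at 6 d and 10 d and had to be well above background on the brighter array. The call was 2-fold. For a gene dim on 1 array the bound was taken against the higher of its own signal and the lowest signal well above background there. No spot was saturated. Accessions of 27229 probes matched the RefSeq table of GRCm38.p6, used for current symbols and promoter sequences.

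The comparison, its 34 gene lists and the genes named were chosen with earlier results of these data known. The rule named the 10 highest and 10 lowest genes with a proper symbol, at most 3 of a family, the 4 largest bounds in each direction, 4 members with the largest difference per list, all 2-fold members of the keratin, WNT, BMP, hedgehog and growth factor lists, and 3 highest and 3 lowest keratin-associated genes per group. Other genes named, the grouping of keratin-associated genes by chromosome (no protein table was used, against the plan), the stretch on chromosome 16, the general epithelial list and the motifs were chosen after values were seen. Alternatives were other scalings, normexp with an offset of 50, other filters, probes and thresholds. The calling step was run on simulated data with changes set well past 2-fold, low noise and no dim genes. That run checks the code and does not measure the error of the calls made here. Work was done in Python 3.11.15 with pandas 2.3.3, and normexp in limma 3.58.1 under R 4.3.3.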

Additional observations from a re-analysis of the deposited data

How the results depend on the processing

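With 1 array a time no replicate could be left out. No paired analysis was possible because each time has 1 array. The counts of genes at least 2-fold higher and lower, 842 and 1152, were 425 and 508 with normexp and 412 and 1734 with spike-in scaling. They were 2876 and 2276 at 1.5-fold and 205 and 524 at 3-fold. The filter on both arrays gave 729 lower genes and no filter gave 1452 higher and 1260 lower ones, while quantile normalization, median centring and the 2 other choices of probe kept both counts within 1.5 times. Spike-in scaling turned the sign of 10 list medians, those of macrophage (-0.0041), lymphocyte (-0.0039), endothelial (-0.0091), fibroblast (-0.0391), adipocyte (-0.09), hair shaft keratin (-0.23), growth factor (-0.25), muscle (-0.13), clock (-0.19) and immediate early genes (-0.11). Of 208 genes past 2-fold or leading, 208 moved by more than the probe SD with spike-in scaling, 91 with normexp and 26 with the mean over probes. Named genes with small positive differences, such as Krt34, Krt33b, Krt81, Corin, Mitf and Adipoq, turned negative with spike-in scaling. Spike-in scaling lowers every difference by 1 common amount. The median control stood 2.77 above the 75th percentile at 6 d and 3.03 at 10 d. That amount exceeds the probe SD of 0.20, so the 208 moves and the sign changes follow from the scaling itself. Why the controls stood differently on the 2 arrays was not tested, nor was the cause of the changes with normexp and with the mean over probes. Signal over background limits the dim genes: 1463 were not well above background on 1 of the arrays, among them 134 of the higher and 423 of the lower calls.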
